A study of Homo sapiens with 21 samples.

Results

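The 7 genes described here are the complex I subunits carried by mitochondrial DNA, MT-ND1, MT-ND2, MT-ND3, MT-ND4, MT-ND4L, MT-ND5 and MT-ND6, hereafter ND1 to ND6. They were taken by their Entrez Gene identifiers (4535, 4536, 4537, 4538, 4539, 4540 and 4541 for ND1, ND2, ND3, ND4, ND4L, ND5 and ND6) and not by any measured value. They are 7 of the 28395 genes in the table, and all 7 passed the filter on low counts together with 16036 genes in all.

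Complex I is the first enzyme of the respiratory chain. It takes electrons from NADH, passes them to ubiquinone and pumps protons across the inner mitochondrial membrane. Its mitochondrially encoded subunits form the core of the membrane arm, while the other subunits are encoded in the nucleus and imported. Mitochondrial DNA is transcribed by its own polymerase, POLRMT, and not by RNA polymerase II. Long transcripts of both strands are cut at the tRNAs between the genes. ND6 is the sole mRNA of the light-strand transcript, and unlike the heavy-strand mRNAs it is described as largely lacking a poly(A) tail.

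RNA-seq was performed on Hs578T, a human triple-negative breast cancer (TNBC) cell line of WT genotype, after 8 h of treatment. The 7 groups of 3 replicates were the vehicle DMSO, 0.1 µM THZ531, 3.16 µM lapatinib (LAP), 1 µM nilotinib (NIL), 0.1 µM THZ531 with 3.16 µM LAP, 0.1 µM THZ531 with 1 µM NIL, and 1 µM THZ531. THZ531 is an inhibitor of the transcriptional kinases CDK12 and CDK13, LAP of EGFR and HER2, and NIL of BCR-ABL. All libraries came from 1 cell line, were poly(A)-selected and did not keep the strand, so reads of ND6 and reads of heavy-strand RNA that runs past it on the opposite strand cannot be told apart. The design asked whether the kinase inhibitors strengthen the response to a low dose of THZ531, with the high dose as a reference.

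Libraries held 97612207 to 112229052 counts. The mesenchymal markers were abundant (VIM at 6394 to 10122 CPM, that is counts relative to the scaled library total). The epithelial and hormone receptor markers ESR1, PGR, CDH1 and EPCAM stayed at or below 0.502 CPM, whereas ERBB2 was at 24.0 to 42.0 CPM. The 7 markers of blood, endothelium, liver and red cells did not exceed 2.45 CPM, the highest value being that of PTPRC, and HBB was at 0 in every library. The composition of the libraries differed by group: the TMM scaling factors were 1.07 to 1.11 in the DMSO, 0.1 µM THZ531, LAP and NIL libraries and 0.867 to 0.921 in the 9 libraries of the combinations and 1 µM THZ531. CPM below are scaled with these factors, and the effect of that choice is given beside the results it changes.

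The starts of the genes are printed to show how the light-strand gene differs from the others. The first 60 bases of each gene in the RefSeq sequence of GRCh38 are given 5′ to 3′ on the gene's own strand, with the start codon in capitals. ND1 starts chrM:3307-3366, ND2 chrM:4470-4529, ND3 chrM:10059-10118, ND4L chrM:10470-10529, ND4 chrM:10760-10819 and ND5 chrM:12337-12396, all on the plus strand, and ND6 takes up chrM:14614-14673 on the minus strand.
ND1: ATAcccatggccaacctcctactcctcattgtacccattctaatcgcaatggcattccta
ND2: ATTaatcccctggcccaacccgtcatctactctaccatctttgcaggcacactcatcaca
ND3: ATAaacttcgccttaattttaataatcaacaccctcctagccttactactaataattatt
ND4L: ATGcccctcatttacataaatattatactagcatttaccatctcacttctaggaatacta
ND4: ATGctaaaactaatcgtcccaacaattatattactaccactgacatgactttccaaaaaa
ND5: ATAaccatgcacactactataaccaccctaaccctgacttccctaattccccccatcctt
ND6: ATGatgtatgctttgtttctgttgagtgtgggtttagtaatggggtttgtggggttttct
The sense sequence of ND6 was rich in G (35.6% of its 525 bases) and poor in C (7.05%). The 6 heavy-strand genes had the opposite composition, with 9.50% to 12.1% G and 29.5% to 35.98% C. The G and C content of ND6 (42.7%) lay within the range of the others (40.2% to 47.7%).

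The gene ends bear on what can be counted separately. Each line gives the last 30 bases of a gene on its own strand, with the bases of the complete or partial stop codon in capitals. A lone T or TA becomes a stop codon when the poly(A) tail is added.
ND1 end, chrM:4233-4262: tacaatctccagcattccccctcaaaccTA
ND2 end, chrM:5482-5511: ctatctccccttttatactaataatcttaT
ND3 end, chrM:10375-10404: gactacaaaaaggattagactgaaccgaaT
ND4 end, chrM:12108-12137: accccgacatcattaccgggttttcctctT
ND5 end, chrM:14119-14148: ctcatcctaaccctactcctaatcacaTAA
ND6 end, chrM:14149-14178, minus strand: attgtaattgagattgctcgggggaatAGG
ND1, ND2, ND3 and ND4 thus end on a partial codon in the genome, and ND5, ND6 and ND4L on a complete one. ND4L and ND4 share 7 bases and are carried on 1 mRNA. The shared bases are in capitals in the plus-strand sequence that follows.
ND4L and ND4, chrM:10740-10786: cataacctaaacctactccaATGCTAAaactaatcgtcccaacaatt
ND5 and ND6 meet end to end on opposite strands with a gap of 0 bases. The last 3 bases of each are in capitals in the plus-strand sequence.
ND5 and ND6, chrM:14129-14168: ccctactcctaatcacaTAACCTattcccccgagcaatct
Reads over these joints could be shared between ND4L and ND4 and, as the strand was not kept, between ND5 and ND6, so the counts of these 4 genes are uncertain there. No named gene in the table had the symbol of a nuclear pseudogene of the 7 genes. Identifiers that matched no RefSeq name could not be checked for this.

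Per kilobase of gene, ND3 had the highest level of the 7 in DMSO cells, at 1280 ± 34.5 CPM per kilobase (SD, n = 3). ND4 followed at 972 ± 169, ND4L at 680 ± 72.2, ND2 at 589 ± 84.1 and ND1 at 539 ± 72.8 CPM per kilobase. ND5 was at 258 ± 41.2 CPM per kilobase. ND6 was the lowest at 200 ± 48.8. This order was the same in 21 of 21 libraries for every pair of neighbours, although the DMSO ranges of some neighbours overlapped. Within a library, the level of ND5 per kilobase was 1.08 to 1.38 times that of ND6 across libraries (median 1.18). The level of ND3 per kilobase was 4.53 to 7.71 times that of ND6 (median 6.68). For ND4 and ND4L, which share an mRNA, the ratio of levels per kilobase was 1.23 to 1.60 (median 1.39).

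**Figure D1:**
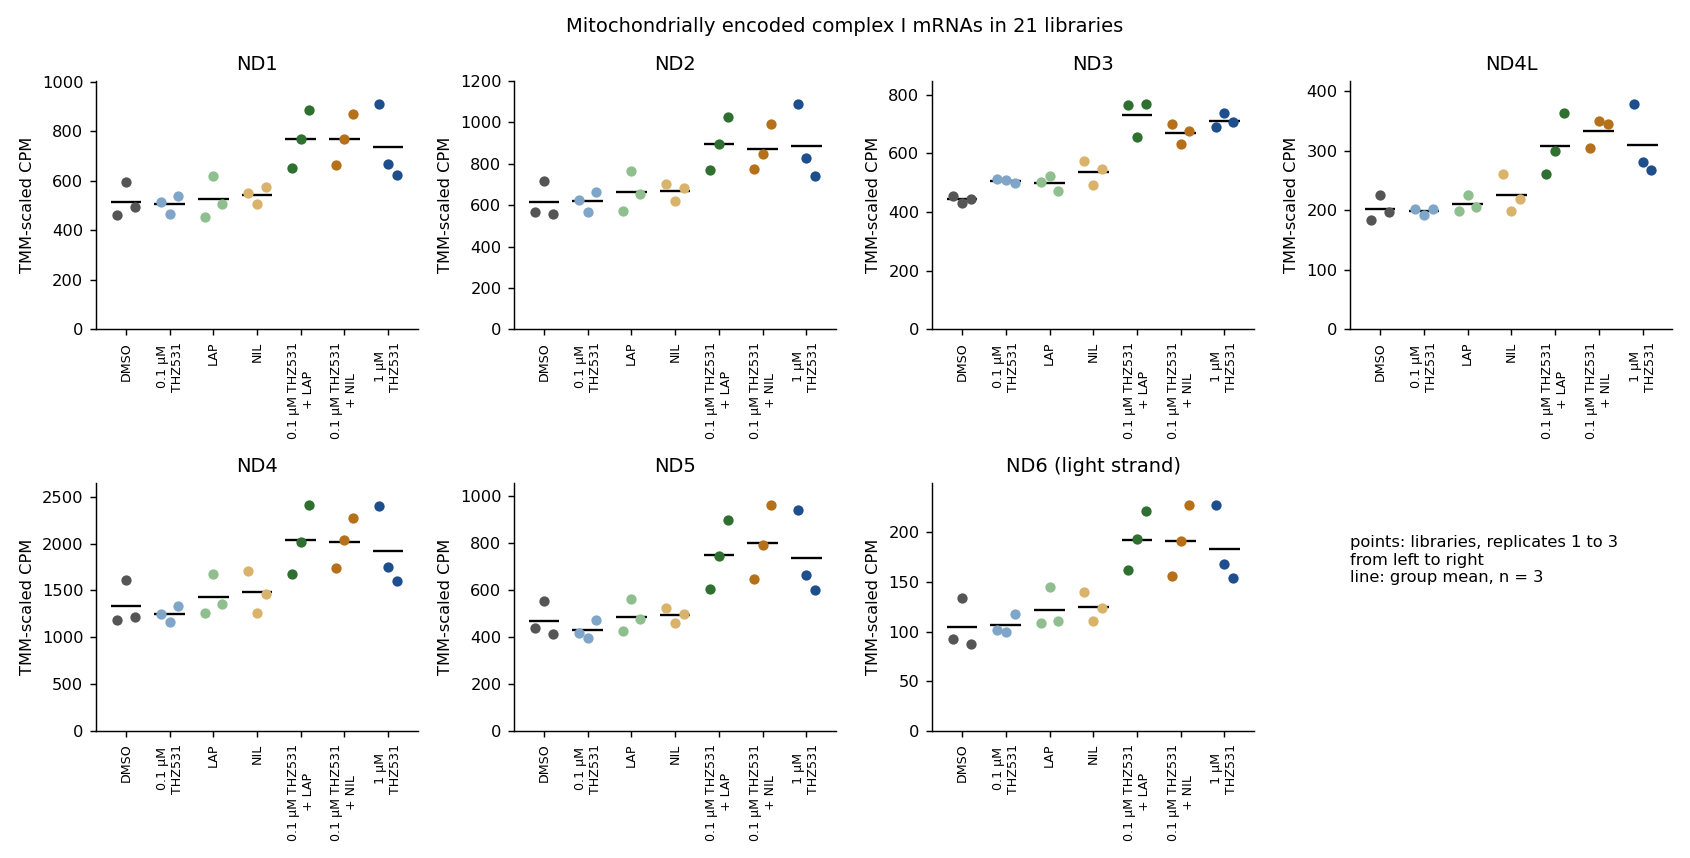
Expression of each gene in the 21 libraries. The vertical axis is TMM-scaled CPM and starts at 0, points are libraries (replicates 1 to 3 from left to right) and lines are means of 3 libraries. For ND6, the 9 libraries of both combinations and 1 µM THZ531 lay between 154 and 227 CPM and the 3 DMSO libraries between 88.0 and 134 CPM.

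The single kinase inhibitors and the low dose of THZ531 left the complex I mRNAs near their DMSO levels. By edgeR's quasi-likelihood test, 0 of the 7 genes were called higher and 0 lower with 0.1 µM THZ531, LAP or NIL (adjusted p under 0.05). Among all genes tested, 1.78% were higher and 4.31% lower with 0.1 µM THZ531, 0.256% and 0.0561% with LAP, and 0.243% and 0.0998% with NIL. At an unadjusted p under 0.05, 1 gene was reached in each comparison, and this gene was ND3 every time (19.2%, 7.16% and 9.67% of all genes in the same order). DESeq2 called ND3 higher with 0.1 µM THZ531 (log2 fold change 0.22, adjusted p = 0.0495) and with NIL (0.29, adjusted p = 0.0134), and called 0 members with LAP. How many of all genes DESeq2 called was not counted.

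ND3, whose product lies in the hinge region between the arms of complex I, had the smallest spread of the 7. In DMSO cells it was measured at 453, 429.8 and 446 CPM. It was at 513, 508 and 498 CPM with 0.1 µM THZ531. The values were 504, 522 and 472 CPM with LAP and 573, 493 and 549 CPM with NIL. Every treated library therefore lay above every DMSO library in all 3 comparisons, as did those of 16.5%, 7.84% and 10.8% of all genes. The log2 fold changes were 0.19 ± 0.066 (SE), 0.17 ± 0.066 and 0.28 ± 0.067, and the adjusted p-values of edgeR's quasi-likelihood test were 0.0981, 0.513 and 0.0727. With NIL, the gene passed the threshold when replicate 2 of NIL was left out (log2 fold change 0.34, adjusted p = 0.0361). It also passed without replicate 2 of THZ531 with LAP, a library outside this comparison (log2 fold change 0.28, adjusted p = 0.0381). The other 6 genes had log2 fold changes between -0.13 (ND5 with 0.1 µM THZ531) and 0.25 (ND6 with NIL) in these 3 comparisons.

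All 7 mRNAs rose when 0.1 µM THZ531 was combined with LAP or NIL, and with 1 µM THZ531. With LAP, the log2 fold changes against DMSO ran from 0.54 (ND2) to 0.88 (ND6), with a median of 0.61, and 7 of 7 genes were called higher, against 34.3% of all genes. With NIL, they ran from 0.50 (ND2) to 0.87 (ND6), with a median of 0.60, and 7 of 7 were called, against 33.7%. With 1 µM THZ531, they ran from 0.51 (ND1) to 0.81 (ND6), with a median of 0.62, and 7 of 7 were called, against 33.1%. None of the 7 was called lower in these comparisons, in which 37.8%, 37.3% and 36.8% of all genes were. The median log2 fold change of all genes tested was -0.0099, -0.013 and -0.0096 in these 3 comparisons.

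How far the rise exceeds the DMSO level depends on how the libraries are scaled. With total counts alone as library size, 2 genes were called higher with THZ531 and LAP (ND3 and ND6), 4 with THZ531 and NIL (ND3, ND4L, ND5 and ND6) and 3 with 1 µM THZ531 (ND3, ND4L and ND6), against 20.9%, 20.5% and 21% of all genes. Under that scaling the median of all genes moved to -0.34, -0.31 and -0.27 (log2), and the genes called higher made up 30.2%, 30.3% and 31.5% of all calls in place of 47.6%, 47.5% and 47.3%. With upper-quartile scaling, 7 of 7 were called in each comparison, against 40.6%, 39.4% and 41.4% of all genes, the median of all genes was 0.15, 0.13 and 0.19, and the genes called higher made up 55.1%, 54.4% and 57.6% of calls. Relative to the median of all genes, the median of the 7 genes was higher by 0.61 to 0.63 (log2) in these 3 comparisons under TMM, RLE, total-count and upper-quartile scaling. A scaling shifts all genes of a library alike, so this agreement between scalings holds by construction. No RNA of known amount was used here as a standard, so an absolute change per cell was not measured, and in bulk RNA fewer cells and less RNA per cell cannot be told apart.

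ND6, the light-strand gene, had the largest fold change of the 7 in each of these 3 comparisons. In DMSO cells it was at 92.1, 134 and 88.0 CPM. It reached 162, 194 and 221 CPM with THZ531 and LAP, and 156, 192 and 227 CPM with THZ531 and NIL. With 1 µM THZ531 it was at 227, 168 and 154 CPM. All 9 of these libraries lay above the highest DMSO library, replicate 2. The log2 fold changes were 0.88 ± 0.18 (SE, adjusted p = 0.000187), 0.87 ± 0.18 (adjusted p = 0.000207) and 0.81 ± 0.18 (adjusted p = 0.000464).

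ND3 rose by less than ND6 but with a much smaller error. It was at 767, 657 and 770.0 CPM with THZ531 and LAP, at 699.7, 634 and 678 CPM with THZ531 and NIL, and at 689, 738 and 706 CPM with 1 µM THZ531. All 9 of these values lay above the DMSO range of 429.8 to 453 CPM. The log2 fold changes were 0.72 ± 0.067 (SE, adjusted p = 6.93e-09), 0.60 ± 0.067 (adjusted p = 1.15e-07) and 0.68 ± 0.067 (adjusted p = 2.06e-08).

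ND5, the longest of the genes and a proton-pumping subunit at the far end of the membrane arm, was at 439, 552 and 412 CPM in DMSO cells. It was at 603, 743 and 896 CPM with THZ531 and LAP, at 644, 791 and 959 CPM with THZ531 and NIL, and at 940.5, 663 and 597 CPM with 1 µM THZ531. The lowest of these 9 values exceeded the highest DMSO value. The log2 fold changes were 0.68 ± 0.17, 0.77 ± 0.17 and 0.65 ± 0.17 (adjusted p = 0.00151, 0.000489 and 0.00225).

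ND4, another proton-pumping subunit and the most counted of the 7, was at 1188, 1608 and 1222 CPM in DMSO cells. With THZ531 and LAP it was at 1679, 2015 and 2409.6 CPM, and with THZ531 and NIL at 1735, 2036 and 2279 CPM. With 1 µM THZ531 the values were 2399, 1754 and 1602 CPM, so that replicate 3 fell just below replicate 2 of DMSO. The log2 fold changes were 0.60 ± 0.16, 0.59 ± 0.16 and 0.52 ± 0.16 (adjusted p = 0.00255, 0.00308 and 0.00802). Without replicate 1 of 1 µM THZ531, ND4 was no longer called in that comparison (log2 fold change 0.33, adjusted p = 0.0811). The same omission lowered ND1 from 0.51 to 0.33, ND2 from 0.53 to 0.35 and ND5 from 0.65 to 0.43, all 3 still called (adjusted p = 0.0467, 0.0284 and 0.0276).

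ND4L, the small subunit translated from the same mRNA as ND4, was at 183 to 225 CPM in DMSO cells and at 261 to 379 CPM in the 9 libraries. ND2, also a proton-pumping subunit, went from 558 to 715 CPM in DMSO cells to between 739 and 1091 CPM. ND1, which forms much of the ubiquinone site with nuclear-encoded subunits, went from 460.4 to 594 CPM in DMSO cells to between 623 and 912 CPM. For these 3 genes no treated library overlapped the DMSO range. Over the 7 genes, the groups did not overlap for 7 with THZ531 and LAP (34.8% of all genes), 7 with THZ531 and NIL (34.6%) and 6 with 1 µM THZ531 (34.4%).

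**Figure D2:**
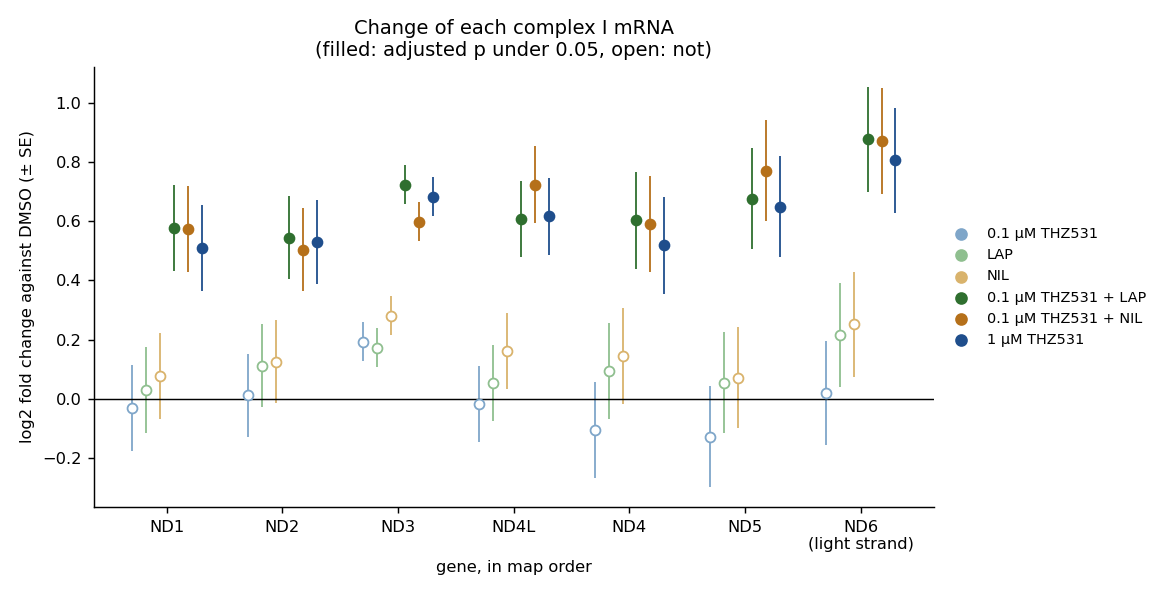
Log2 fold change against DMSO for each gene in map order, with error bars of 1 SE and filled points for an adjusted p under 0.05. The points of both combinations and of 1 µM THZ531 are filled and lie between 0.50 and 0.88, and those of the other treatments are open and lie between -0.13 and 0.28.

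As a share of all counts, the 7 genes took 0.404% ± 0.0529 (SD, n = 3) in DMSO cells. The share was 0.387% with 0.1 µM THZ531, 0.433% with LAP and 0.440% with NIL. It was 0.496% ± 0.0720, 0.503% ± 0.0629 and 0.503% ± 0.0960 with THZ531 and LAP, THZ531 and NIL, and 1 µM THZ531. The groups overlapped on this measure, since the lowest libraries of these last 3 groups (0.426%, 0.4404% and 0.429%) lay below the highest DMSO library (0.466%). As a share of the 13 mitochondrial mRNAs, the 7 genes took 32.3% ± 1.85 in DMSO cells and 30.9% to 32.6% in the treated groups, with an SD of 0.838 to 2.00 percentage points. Within mitochondrial mRNA their share thus moved by less than the spread between replicates.

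Adding 0.1 µM THZ531 to a kinase inhibitor was compared with the inhibitor alone. Against LAP, 7 of 7 genes were higher (34.9% of all genes), by 0.43 (ND2) to 0.66 (ND6) on the log2 scale. Against NIL, 7 of 7 were higher (33.6%), by 0.32 (ND3) to 0.70 (ND5). Under total-count scaling 1 gene was called in each of these comparisons, ND3 against LAP (21.2% of all genes) and ND5 against NIL (19.9%). The step from 0.1 to 1 µM THZ531 raised 7 of 7 genes (34.3% of all genes), by 0.49 (ND3) to 0.79 (ND6), and 5 of 7 under total-count scaling (22.9%).

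Neither combination was distinguishable from 1 µM THZ531 for any of the 7 genes. With LAP, 0 were called higher (12.8% of all genes) and 0 lower (16.1%), with log2 differences from -0.0082 (ND4L) to 0.085 (ND4) and SE of 0.066 to 0.18. With NIL, 0 were called higher (11.2%) and 0 lower (13%), with log2 differences from -0.085 (ND3) to 0.12 (ND5). At an unadjusted p under 0.05, edgeR reached 0 of the 7 in both (38.2% and 33.6% of all genes), and DESeq2 also called 0. The errors were largest for ND6, which differed by 0.072 ± 0.18 and 0.066 ± 0.18 (SE), so moderate differences were not detectable with 3 replicates.

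The excess of each combination over the sum of its parts was tested as an interaction on the log2 scale. With LAP it was positive for 7 of 7 genes and called for 6 (28.2% of all genes were called higher). It was largest for ND5 (0.75 ± 0.24 SE, adjusted p = 0.0115), and ND2 was not called (0.42 ± 0.20, adjusted p = 0.0749). With NIL it was called for 5 (25.6%), again with the largest value for ND5 (0.83 ± 0.24, adjusted p = 0.00661). ND2 (0.37, adjusted p = 0.124) and ND3 (0.12, adjusted p = 0.269) were not called. The interactions rested on the scaling, since 0 of the 7 genes were called under total-count scaling with either inhibitor (14.9% of all genes with LAP and 12.8% with NIL). Under RLE scaling 7 were called with LAP and 5 with NIL (4720 and 4210 of all 16036 genes). Under upper-quartile scaling 7 were called with each inhibitor (5791 and 5381 of all genes). The interactions also rested on single libraries: without replicate 2 of DMSO, 3 genes were called with LAP and 2 with NIL.

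The light-strand gene was then set against the heavy-strand genes of the same library, which removes the scaling between libraries. Counts of ND6 were 19.4%, 23.3% and 18.4% of the geometric mean of the 6 heavy-strand genes in DMSO cells. They were 19.9% to 22.1% with 0.1 µM THZ531, 21.2% to 23.8% with LAP and 21.6% to 23.0% with NIL. They were 23.8% to 25.3% with THZ531 and LAP, 22.2% to 26.0% with THZ531 and NIL, and 23.4% to 24.8% with 1 µM THZ531. DMSO replicate 2 overlapped the range of THZ531 and NIL, and lay just below those of THZ531 and LAP and of 1 µM THZ531.

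Relative to the summed counts of the 6 heavy-strand genes, the log2 fold change of ND6 against DMSO was 0.064 with 0.1 µM THZ531, 0.13 with LAP and 0.12 with NIL. It was 0.27 ± 0.15 (SE) with THZ531 and LAP, 0.27 ± 0.15 with THZ531 and NIL, and 0.25 ± 0.15 with 1 µM THZ531. By edgeR's quasi-likelihood test 0 of these were called (adjusted p = 0.112, 0.121 and 0.158 for the last 3), and 0 had an unadjusted p under 0.05. In the same test 5.31%, 4.46% and 3.9% of all genes were higher. DESeq2 called all 3 on the same reference (adjusted p = 0.0185, 0.0213 and 0.0352). The share of all genes that DESeq2 called on this reference was not counted. With 3 against 3 libraries, a two-sided exact permutation test of the ratio cannot go below p = 0.1, and it gave 0.1, 0.2 and 0.1. All libraries of THZ531 with LAP and of 1 µM THZ531 lay above the 3 DMSO libraries on this ratio, and those of THZ531 with NIL overlapped them.

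An exact permutation test within the 3 pairs of groups with and without 0.1 µM THZ531 used more libraries. The ND6 ratio was higher with THZ531 by 0.10 on the log2 scale (1.07-fold; two-sided exact p = 0.0443 over 8000 relabellings). The difference was 0.050 without an inhibitor, 0.13 with LAP and 0.13 with NIL. Against the 12 heavy-strand mRNAs it was 0.11 (exact p = 0.0543), and against ND5 alone, the neighbour that ends where ND6 ends, it was 0.046 (exact p = 0.272). Without ND3 in the reference, a choice made after seeing the data, it was 0.11 (exact p = 0.0133). Leaving out 1 library at a time gave exact p-values of 0.00275 to 0.117, and 12 of the 18 omissions lost the call. Among the latter were replicate 1 of DMSO (exact p = 0.0985) and replicate 3 of DMSO (exact p = 0.117), so the call rests on single libraries.

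Against ND5 alone, ND6 counts were 20.97%, 24.3% and 21.4% of ND5 counts in DMSO cells and 23.4% to 26.9% in all 18 treated libraries. Counts of ND6 thus followed those of ND5 within a narrow range. As the libraries did not keep the strand, the part of this signal that came from ND6 mRNA itself was not measured.

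**Figure D3:**
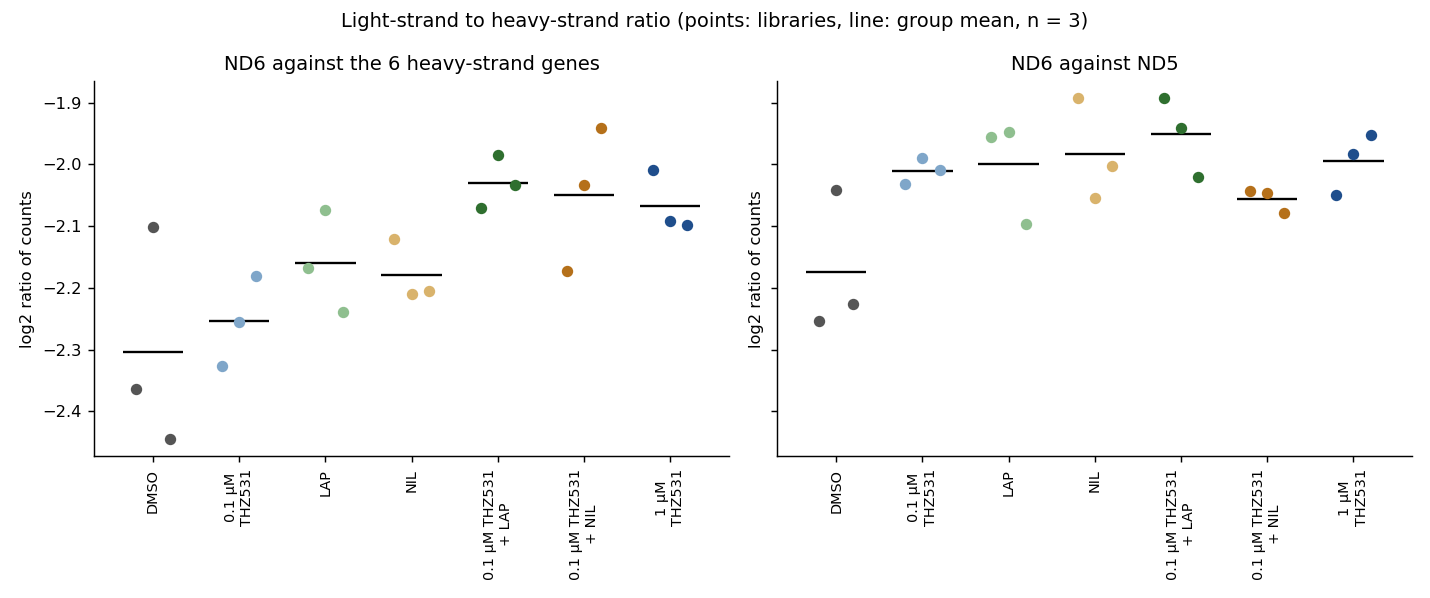
Log2 ratio of ND6 counts to the geometric mean of the 6 heavy-strand genes (left) and to ND5 counts (right) in each library. Points are libraries and lines are means of 3. On the left the DMSO libraries correspond to 18.4% to 23.3% and the 9 libraries of the combinations and 1 µM THZ531 to 22.2% to 26.0%, and on the right these are 20.97% to 24.3% and 23.7% to 26.9%.

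Within groups, 6 of the 7 mRNAs rose and fell together from library to library. The deviations of log2 CPM from the group mean had Pearson's r of 0.86 to 0.98 for each pair among ND1, ND2, ND4, ND4L, ND5 and ND6 over 21 libraries, which share their scaling and depth within a library. ND3 stood apart, with r of -0.083 to 0.065 with each of the other 6. Its deviations went with those of the ribosomal RNA RNR2 (r = 0.72) and of COX2 (r = 0.58). The pooled SD of ND3 was 0.0801 (log2), against 0.176 (ND4L) to 0.245 (ND6) for the others.

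The libraries farthest from their group mean, for the mean of the other 5 heavy-strand genes, were replicate 1 of 1 µM THZ531 (0.34 on the log2 scale), replicates 3 and 1 of THZ531 with LAP (0.24 and -0.24), replicate 3 of 1 µM THZ531 (-0.23), and replicate 2 of DMSO (0.23). The main axis of within-group deviations over 9805 abundant genes held 56.2% of their variance. Its correlation with the 5 genes was 0.68 in size, with ND6 0.67 and with ND3 0.55, as a description of 21 libraries. The part of such library differences in the results was not tested, beyond leaving out each library in turn.

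**Figure D4:**
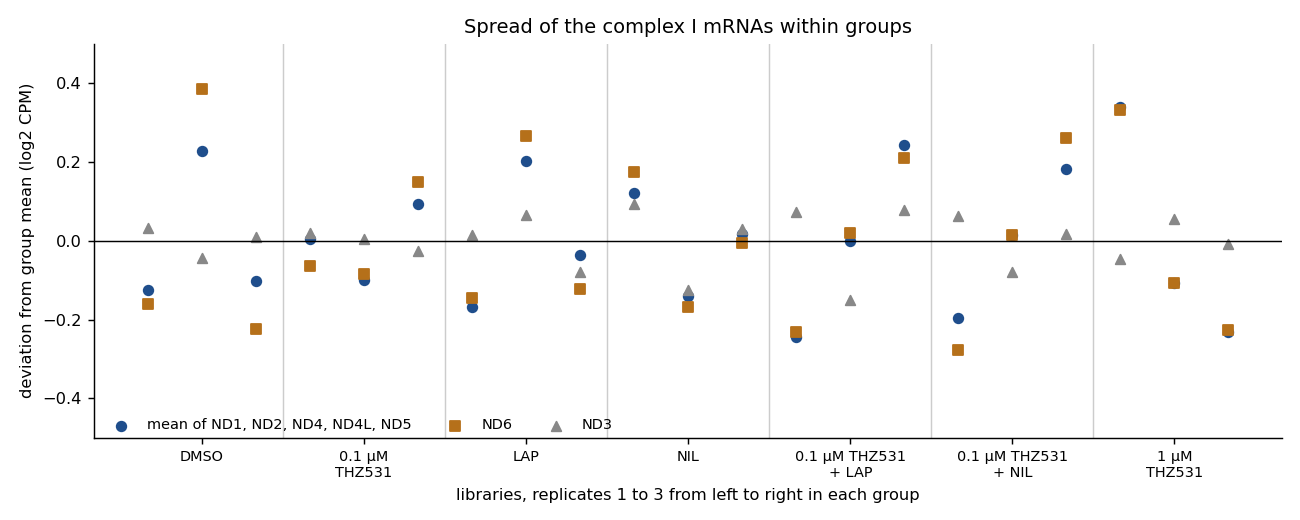
Deviation of each library from its group mean in log2 CPM, for the mean of ND1, ND2, ND4, ND4L and ND5, for ND6 and for ND3. ND6 follows the 5 genes in each group (for example 0.33 and 0.34 in replicate 1 of 1 µM THZ531), while ND3 stays between -0.15 and 0.094.

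The other RNAs of mitochondrial DNA moved in the same direction. All 6 remaining mRNAs were called higher in both combinations and with 1 µM THZ531 (34.3%, 33.7% and 33.1% of all genes). Their medians were 0.71, 0.61 and 0.56. These mRNAs encode cytochrome c oxidase and ATP synthase subunits and cytochrome b. The largest changes with THZ531 and LAP were those of ATP8 (0.79 ± 0.16 SE, adjusted p = 0.000216) and COX2 (0.76 ± 0.081, adjusted p = 5.04e-08).

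The ribosomal RNAs, which lie at the start of the heavy-strand transcript, rose by more. RNR2 changed by 1.20 ± 0.085 (SE), 1.15 ± 0.085 and 1.15 ± 0.085 (adjusted p = 1.24e-10, 2.63e-10 and 3.3e-10) and RNR1 by 0.93 ± 0.11, 0.89 ± 0.11 and 0.83 ± 0.11 (adjusted p = 4.08e-07, 7.92e-07 and 2.18e-06). Of the light-strand tRNAs, 3 were counted often enough to test, TRNP with 1039 to 2133 counts, TRNN with 184 to 391 and TRNC with 54 to 154. With THZ531 and LAP they were higher by 0.74, 0.97 and 1.06 on the log2 scale (adjusted p = 4.7e-05, 4.01e-07 and 2.87e-05). As with ND6, reads of these 3 tRNAs cannot be told apart from heavy-strand RNA on the opposite strand. A rise of the tRNAs themselves was thus not measured. The other 19 mitochondrial tRNAs had at most 3 counts in any library.

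Most nuclear genes of complex I rose as well. Of 37 listed nuclear subunit genes, 36 were tested, and 32 were higher and 1 lower with THZ531 and LAP (median log2 fold change 0.75, against -0.0099 for all genes). With NIL 31 were higher and 1 lower (median 0.68), and with 1 µM THZ531 31 and 1 (median 0.65). The count of higher nuclear subunit genes was 27 to 29 under total-count scaling, against 20.9%, 20.5% and 21% of all genes. Scaled to the 6 other mitochondrial mRNAs, it was 1, 0 and 0, with 6, 5 and 2 lower. Under that scaling 826, 796 and 758 of all 16036 genes were higher and 9704, 9101 and 8506 lower. The largest rises with THZ531 and LAP were those of the accessory subunits NDUFB2 (1.07 ± 0.13, adjusted p = 2.55e-07) and NDUFB1 (1.06 ± 0.14, adjusted p = 1.39e-06). The gene that fell was NDUFV3, an accessory subunit of the NADH-oxidising module (-1.21 ± 0.072, adjusted p = 8.79e-12).

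The 19 tested assembly factors of complex I were mixed, with 10 higher and 5 lower with LAP, 10 and 3 with NIL, and 10 and 6 with 1 µM THZ531 (medians 0.30, 0.27 and 0.33). Of all genes, 34.3%, 33.7% and 33.1% were higher and 37.8%, 37.3% and 36.8% lower. Total-count scaling turned the split of the assembly factors to 5 and 7, 5 and 8, and 5 and 7. There, 3357, 3286 and 3363 of all 16036 genes were higher and 7763, 7557 and 7319 lower. NDUFAF2 (1.03 ± 0.10, adjusted p = 1.9e-08) and NDUFAF8 (0.74 ± 0.11, adjusted p = 4.32e-06) rose the most with THZ531 and LAP. TMEM186 (-0.81 ± 0.16, adjusted p = 0.000147) and TMEM70 (-0.73 ± 0.099, adjusted p = 1.63e-06) fell the most.

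In contrast, most nuclear genes for transcription and replication of mitochondrial DNA fell. Of 14 tested, 2 were higher and 10 lower with THZ531 and LAP, 2 and 10 with THZ531 and NIL, and 2 and 11 with 1 µM THZ531 (medians -0.63, -0.70 and -0.98). Among all genes tested, 34.3%, 33.7% and 33.1% were higher and 37.8%, 37.3% and 36.8% lower in the same order. POLRMT, the polymerase that makes the 7 mRNAs, was lower by -0.68 ± 0.090, -0.56 ± 0.090 and -0.86 ± 0.090 (adjusted p = 1.2e-06, 1.38e-05 and 5.2e-08). TFAM, which packages mitochondrial DNA and starts its transcription, was called lower with 1 µM THZ531 (-0.33 ± 0.086, adjusted p = 0.00182). Its values in the combinations were -0.018 and -0.13 (adjusted p = 0.855 and 0.178), and under total-count scaling it was called lower with THZ531 and LAP (-0.35, adjusted p = 0.00171). The largest falls with THZ531 and LAP were those of the transcription factor MTERF1 (-2.22 ± 0.16, adjusted p = 2.21e-10) and of the accessory DNA polymerase subunit POLG2 (-2.16 ± 0.14, adjusted p = 5.37e-11). The 2 called higher were SSBP1, the mitochondrial single-stranded DNA binding protein (0.88 ± 0.097, adjusted p = 8.4e-08), and the DNA polymerase POLG (0.45 ± 0.10, adjusted p = 0.000618). POLG was not called under total-count scaling (0.13, adjusted p = 0.293).

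Genes for the processing and stability of mitochondrial RNA also fell more often than they rose. Of 26 tested, 6 were higher and 17 lower with THZ531 and LAP, 6 and 18 with THZ531 and NIL, and 6 and 16 with 1 µM THZ531 (medians -0.71, -0.52 and -0.76). The shares of all genes were 34.3%, 33.7% and 33.1% higher and 37.8%, 37.3% and 36.8% lower. SLIRP, which with LRPPRC keeps the heavy-strand mRNAs stable, was higher by 0.95 ± 0.12, 0.75 ± 0.12 and 0.72 ± 0.12 (adjusted p = 6.15e-07, 1.28e-05 and 2.14e-05). Values of LRPPRC were 0.029, 0.013 and -0.011 (adjusted p = 0.629, 0.84 and 0.865). With THZ531 and LAP it was called lower under total-count scaling (-0.30, adjusted p = 3.87e-05) and higher under upper-quartile scaling (0.19, adjusted p = 0.00674).

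FASTK, described as needed for ND6 mRNA, was higher by 0.46, 0.46 and 0.34 (adjusted p = 0.000185, 0.000205 and 0.0027), and was not called with THZ531 and LAP under total-count scaling (0.13). GRSF1, an RNA granule protein that binds the G-rich light-strand RNA, was called lower with 1 µM THZ531 (-0.31 ± 0.063, adjusted p = 0.000247) and had values of -0.096 and 0.047 in the combinations (adjusted p = 0.177 and 0.516). Under total-count scaling GRSF1 was called lower with THZ531 and LAP (-0.42, adjusted p = 4.96e-06). The degradation enzymes PNPT1 (-0.71, -0.56 and -0.23) and SUPV3L1 (-0.56, -0.64 and -1.003) were called lower in all 3 comparisons. The largest changes with THZ531 and LAP were those of FASTKD5 (1.57 ± 0.12, adjusted p = 5.36e-10), FASTKD1 (-3.09 ± 0.098, adjusted p = 1.49e-15) and PTCD2 (-2.08 ± 0.16, adjusted p = 5.06e-10).

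**Figure D5:**
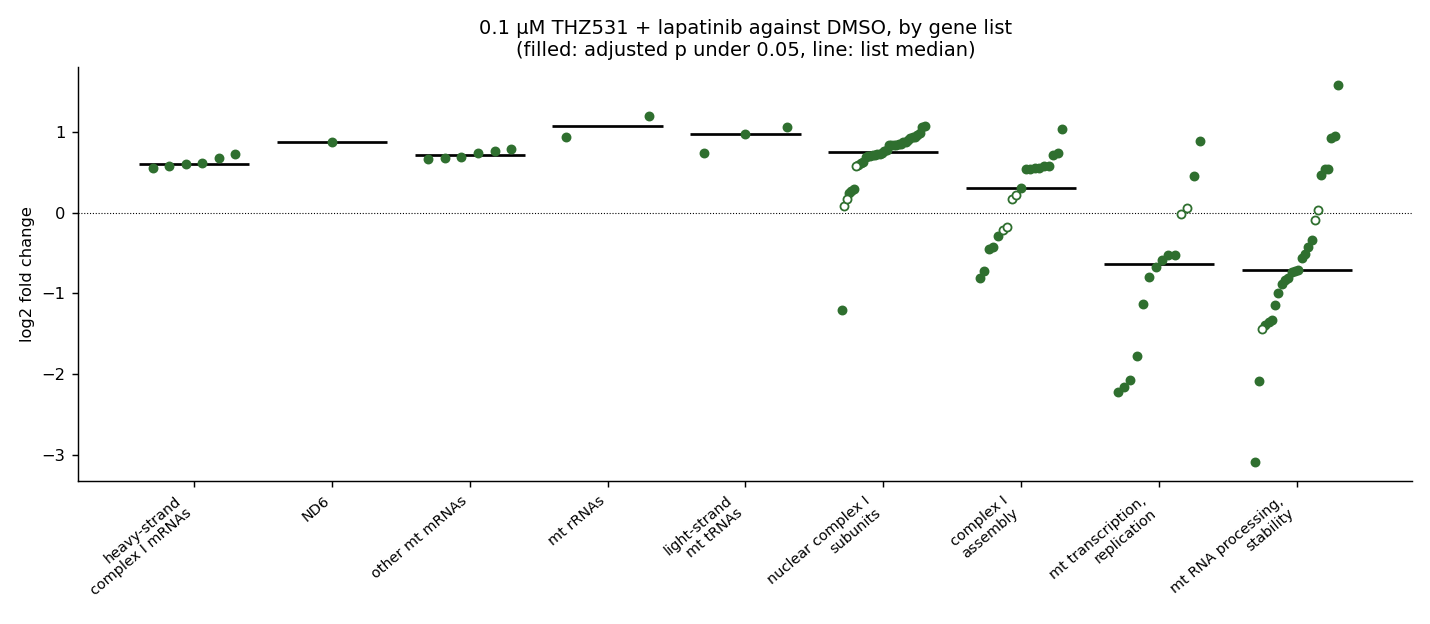
Log2 fold change of each gene with 0.1 µM THZ531 and LAP against DMSO, by list, with filled points for an adjusted p under 0.05 and lines for list medians. The medians of the nuclear complex I subunits (0.75) and of the transcription and replication genes (-0.63) lie on opposite sides of 0.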

How the data were processed

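Poly(A) RNA of 21 Hs578T cultures (7 groups, 3 replicates each) was sequenced as unstranded paired-end libraries. The authors aligned the reads to GRCh38 with HISAT2 2.1.0 and deposited raw counts per gene made with featureCounts, identified by Entrez number. How featureCounts treated read pairs and reads shared by overlapping genes is not given in the sources used here. The study describes the replicates as independent experiments.

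The deposited counts of 16036 genes that passed edgeR's filterByExpr were scaled with TMM and tested in R 4.3.3 with edgeR 4.0.16 (quasi-likelihood test, 1 mean per group over all 21 libraries, no covariates, Benjamini-Hochberg adjustment over all genes tested, called at an adjusted p under 0.05). ND6 was also tested with the summed counts of the 6 heavy-strand genes as library size, and its ratio to their geometric mean by exact permutation (numpy 2.4.6). The 7 genes were named in every group. From each list the largest 2 rises and 2 falls among called genes with THZ531 and LAP were named, as were POLRMT, TFAM, LRPPRC, SLIRP, GRSF1, FASTK, PNPT1 and SUPV3L1. The genes and lists were chosen with earlier results of these data known. Gene names, positions and sequences came from RefSeq on GRCh38, and 27745 of 28395 identifiers matched a name. Alternatives were DESeq2 1.42.0, RLE, upper-quartile and total-count scaling, scaling to the 6 other mitochondrial mRNAs, no filter, a minimum of 10 counts in every library, halved counts, only the groups compared, a replicate block, other references for ND6 and omission of each library. Omission of ND3 from the ND6 reference was chosen after seeing the data. The scripts were tested on simulated data.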

Additional observations from a re-analysis of the deposited data

Results flagged for a closer look

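The test of the difference itself, the interaction of 0.1 µM THZ531 with each kinase inhibitor, called 11 values (edgeR's quasi-likelihood test, adjusted p under 0.05), where 28.2% of all genes were called higher with LAP and 25.6% with NIL. Under total-count scaling 0 of the 7 genes were called with either inhibitor, and under upper-quartile scaling 7 with each (5791 and 5381 of all 16036 genes). With LAP the log2 differences were 0.58 for ND1, 0.36 for ND3, 0.61 for ND4, 0.57 for ND4L, 0.75 for ND5 and 0.64 for ND6. With NIL they were 0.53 for ND1, 0.55 for ND4, 0.58 for ND4L, 0.83 for ND5 and 0.60 for ND6. Omission of 1 library at a time left 3 to 7 genes called with LAP, and 3 without replicate 2 of DMSO, replicate 2 of 0.1 µM THZ531, replicate 1 of LAP or replicate 3 of THZ531 with LAP. With NIL, 2 to 5 genes were called, and 2 or 3 without replicate 2 of DMSO, replicate 1 or 2 of 0.1 µM THZ531, replicate 3 of LAP, replicate 2 of THZ531 with LAP, replicate 2 or 3 of NIL, or replicate 2 or 3 of THZ531 with NIL. The cause was not tested.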

How the results depend on the processing

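The count of genes called lower was 0 under every alternative run. With total counts alone, the count of genes called higher was 2 with THZ531 and LAP, 4 with THZ531 and NIL and 3 with 1 µM THZ531, 1 for each combination against its inhibitor, and 0 for each interaction. Scaled to the 6 other mitochondrial mRNAs, which removes by construction what the 13 mRNAs share, it was 0 in these comparisons and for 1 against 0.1 µM THZ531. There the log2 fold changes against DMSO turned to -0.14 (ND1), -0.17 (ND2), -0.11 (ND4), -0.11 (ND4L), -0.040 (ND5), -0.26 (POLG), -0.68 (LRPPRC) and -0.25 (FASTK) with THZ531 and LAP, -0.048 (ND1), -0.12 (ND2), -0.025 (ND3) and -0.030 (ND4) with THZ531 and NIL, and -0.042 (ND1), -0.022 (ND2) and -0.034 (ND4) with 1 µM THZ531. For ND3 it was -0.0057 against LAP, -0.11 against NIL and -0.037 for 1 against 0.1 µM THZ531. For ND6 it was -0.090 and -0.0056 for the combinations with LAP and NIL against 1 µM THZ531, and the interactions were -0.13 (ND2) and -0.19 (ND3) with LAP and -0.061 (ND2) and -0.29 (ND3) with NIL. The cause was not tested for any other change that follows. DESeq2 called 1 gene higher with 0.1 µM THZ531 and 1 with NIL, only the groups compared gave 1 with 0.1 µM THZ531, and the relative ND6 change passed the threshold in DESeq2 at 0.27, 0.27 and 0.25 (both combinations and 1 µM THZ531). With ND5 as reference, relative ND6 changes turned to -0.074 (THZ531 and NIL against NIL), -0.062 (THZ531 and NIL against 1 µM THZ531), -0.11 (interaction with LAP) and -0.23 (interaction with NIL). With 12 heavy-strand mRNAs the change was -0.056 for THZ531 and LAP against 1 µM THZ531, and without ND3 it was -0.0045 for THZ531 and NIL against 1 µM THZ531. The permutation difference was 0.11 (12 mRNAs) and 0.046 (ND5) with p above the threshold. Total-count scaling also gave ND6 with 0.1 µM THZ531 -0.014 (upper quartile -0.012), LRPPRC -0.30, the ND3 interaction with NIL -0.12, and TFAM -0.35 (adjusted p = 0.00171) and GRSF1 -0.42 (adjusted p = 4.96e-06), both called lower with THZ531 and LAP. TFAM with THZ531 and LAP was 0.035 (RLE), 0.14 (upper quartile) and 0.035 (DESeq2), and GRSF1 0.061 (upper quartile). By edgeR's quasi-likelihood test, the ND3 interaction with NIL was called under upper-quartile scaling (0.29, adjusted p = 0.0208). As shares of the 13 mitochondrial mRNAs, the 7 genes took 32.3%, 31.8%, 31.3%, 31.5%, 30.9%, 32.2% and 32.6% (DMSO, 0.1 µM THZ531, LAP, NIL, THZ531 and LAP, THZ531 and NIL, 1 µM THZ531). Omission of single libraries gave ranges of -0.091 to 0.24 (ND6, 0.1 µM THZ531), 0 to 1 genes higher (NIL), 7 to 7 (both combinations) and 6 to 7 (1 µM THZ531), 3 to 7 and 2 to 5 (interactions with LAP and NIL), -0.075 to 0.036 (TFAM) and -0.014 to 0.060 (LRPPRC) with THZ531 and LAP, and -0.040 to 0.26 and -0.074 to 0.25 (ND6, combinations with LAP and NIL against 1 µM THZ531). Relative ND6 changes ranged from -0.026 to 0.070 (THZ531 and NIL against 1 µM THZ531), -0.016 to 0.14 and -0.0087 to 0.14 (interactions with LAP and NIL), and the permutation difference from 0.080 to 0.14. Same-numbered libraries did not deviate together in every pair (63 pairs, mean r 0.145, range -0.807 to 0.869). Libraries with different numbers had a mean r of -0.067. Pairing by number was thus not settled, and the main test did not take the numbers to pair the samples. The replicate block left 3 genes called for the interaction with NIL, without ND4 (0.55) and ND6 (0.59, adjusted p = 0.0606 for both), and changed no other count of the 7 genes. Replicate spread, and not depth, limits these values, since each of the 7 genes had at least 10341 counts in every library.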

Other observations

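Small RNAs made by RNA polymerase III, which like ND6 mRNA carry no regular poly(A) tail, were also counted in these libraries. Of 13 listed, 6 were tested, and 5, 6 and 5 were higher with THZ531 and LAP, THZ531 and NIL, and 1 µM THZ531, with 0 lower (edgeR's quasi-likelihood test), against 34.3%, 33.7% and 33.1% of all genes higher. Scaled to the 6 other mitochondrial mRNAs, 1, 3 and 3 were called higher, against 826, 796 and 758 of all 16036 genes. Under TMM scaling, the count with 1 µM THZ531 was 3 without replicate 3 of that group. With THZ531 and LAP the count was 3 under total-count scaling, against 20.9% of all genes. RPPH1, the RNA of nuclear ribonuclease P, changed by 5.81 ± 0.27 (SE, adjusted p = 2.24e-13) with THZ531 and LAP, from a DMSO mean of 0.176 CPM. VTRNA1-3, a vault RNA, changed by 1.62 ± 0.43 (adjusted p = 0.00226, and at most 0.0274 with 1 library left out). Its DMSO mean was 0.131 CPM, so both of these RNAs started from a low level. What they share with the ND6 values was not tested.

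Over the 21 libraries, the nuclear genes whose log2 CPM most resembled that of ND6 were PKD1, HMGN5 and PDIA4 (Pearson's r = 0.944, 0.944 and 0.943). For the mean of the 6 heavy-strand genes they were HMGN5, SPOCK1 and CAST (r = 0.965, 0.954 and 0.952). All points share the group differences and the scaling of the libraries.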
